A study of Homo sapiens with 34 samples.

Results

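The FTO-sensitive m6Am map of unstressed HEK293T cells is a deposited list of 1652 peaks, of 2116 peaks in the 3 deposited lists of the series. Every peak of that list was taken, with no further choice. HEK293T is a line of human embryonic kidney origin that carries the SV40 large T antigen. The list came from wild-type cells with no stress treatment, with 2 libraries each of FTO (+) m6A-IP, FTO (-) m6A-IP, m7G-IP and input, all from the same line. FTO (+) names capped RNA that was treated with purified FTO in the tube, and FTO (-) the same RNA without that treatment. The other 2 lists came from heat shock (74 peaks) and hypoxia (390 peaks). The list gives a chromosome, the outer ends of a span and a gene name for each peak, with no strand, score, read count or value per library. From the list alone, read depth at the peaks is unknown, replicates cannot be compared, and no value per sample can be given for any gene below. Intervals are 95% Wilson intervals over genes or peaks and cover counting error only, and genes are not replicates.

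m6Am is a cap-adjacent adenosine that carries a methyl group on its base and another on its ribose. It forms where transcription begins with an adenosine, PCIF1 adds the methyl group on the base beside the m7G cap, and FTO can remove it. Because the mark sits on the transcript's own first base, a peak belongs at a transcription start. Many human promoters fire in both directions, so that the starts of neighbouring genes can lie head to head a short distance apart, and a span without a strand can then carry the name of either gene.

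Sequences around annotated starts of several named genes are shown, some of which lie outside the span that carries the gene's name. Each window holds the transcribed strand on hg19, read from the GRCh37 genome, with 15 bases before and 14 bases after an annotated start, and the capital is the first transcribed base. The pair with the starts 64 bp apart, POLL and DPCD, had a peak for each gene. POLL encodes DNA polymerase lambda. The windows lie at chr10:103348000-103348029 (minus strand) and chr10:103348063-103348092 (plus strand).
POLL: gctgactcggaagctAttctggccatttgc
DPCD: gcggctgggcgtgctGcttagcaggggaaa
ZNF142, a zinc finger gene, and BCS1L, which encodes a chaperone for assembly of mitochondrial complex III, start 60 bp apart. The windows lie at chr2:219524332-219524361 (minus strand) and chr2:219524391-219524420 (plus strand).
ZNF142: cccacagagaagcccAcgccactctacccc
BCS1L: ggcggggccgaacgcAgcttccccaaggtg
CCDC142 and TTC31, named for a coiled-coil and a tetratricopeptide repeat, start 83 bp apart and are shown because their peaks carry each other's name. The windows lie at chr2:74710111-74710140 (minus strand) and chr2:74710193-74710222 (plus strand).
CCDC142: atgtttgttaggggcAgaagcctcccatta
TTC31: acctttcatttccggGtcactgtagatgcg
TOR1AIP1 and SLC9B2 were the names with 3 peaks, and each had peaks at a pair of annotated starts. The TOR1AIP1 windows lie at chr1:179851162-179851191 and chr1:179851816-179851845 (plus strand), and those of SLC9B2 at chr4:103997479-103997508 and chr4:103997904-103997933 (minus strand). First and second follow position on the chromosome, so the second SLC9B2 start is the upstream one.
TOR1AIP1 first start: gtcttctccaccctcGtcgcactccttttc
TOR1AIP1 second start: cggacgagccgccagAagtgtacggcgact
SLC9B2 first start: cctgagaccgtttatCtgcagtcaacgcag
SLC9B2 second start: tcgcggtgtctcgtcAtctccgggaagact
RPS23 shows the pyrimidine-rich start typical of cytosolic ribosomal protein genes, and RPL7L1, a relative of RPL7, lacks it. The windows lie at chr5:81574159-81574188 (minus strand) and chr6:42847339-42847368 (plus strand).
RPS23: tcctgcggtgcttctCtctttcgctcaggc
RPL7L1: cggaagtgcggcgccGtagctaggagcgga

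The map was first asked which kinds of gene it names. Of the 1652 peaks, 1609 (97.4%) carried a name that matched an annotated gene within 50000 bp of the span, 1561 by the current symbol, 45 by an older symbol and 3 by a calendar date. The 3 dates stood where SEPTIN2, SEPTIN7 and SEPTIN9 lie, which is the form a spreadsheet gives to their older symbols. Protein-coding genes took 1505 peaks (91.1%, interval 89.6-92.4), long noncoding RNA (lncRNA) genes 74 (4.48%, interval 3.58-5.59), small RNA genes 18 and pseudogenes 12. A further 38 names had no annotated gene of that name near the span, and 5 peaks had no name. At the level of genes, 1471 of 20175 protein-coding genes had a peak under their name, which is 7.29% (interval 6.94-7.66). Of 18702 annotated lncRNA genes, 74 did, or 0.396%. Genes that the cells do not express count in both totals, and since the files hold no expression, its part in these shares was not tested.

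Most protein-coding names fitted a start of their own gene, and most small RNA names did not. The 5′ end of a span, taken on the named gene's strand, lay within 100 bp of an annotated start of that gene for 1283 of 1609 peaks (79.7%, interval 77.7-81.6). For protein-coding names the share was 81.7% (1230 of 1505), for lncRNA names 67.6% (50 of 74) and for miRNA names 6.67% (1 of 15). Of the 15 miRNA-named peaks, 11 instead began at the start of a protein-coding gene. For example, the peak named MIR616 began at the start of DDIT3, which encodes the stress transcription factor CHOP, and the peak named MIR1301 at that of DNMT3A, a DNA methyltransferase. The peak named MIR5697 began at the start of NMNAT1, an NAD synthesis enzyme. These 3 were picked after their values were seen. Mature miRNAs are processed and carry no cap. In those 11 spans the name can be that of a miRNA gene within or near a longer gene, and which transcript carried the mark cannot be told from the list. The peak named MIR3652 began 91 bp from its own start, and those named MIR454, MIR3128 and MIR3621 had no annotated start at the span.

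**Figure D1:**
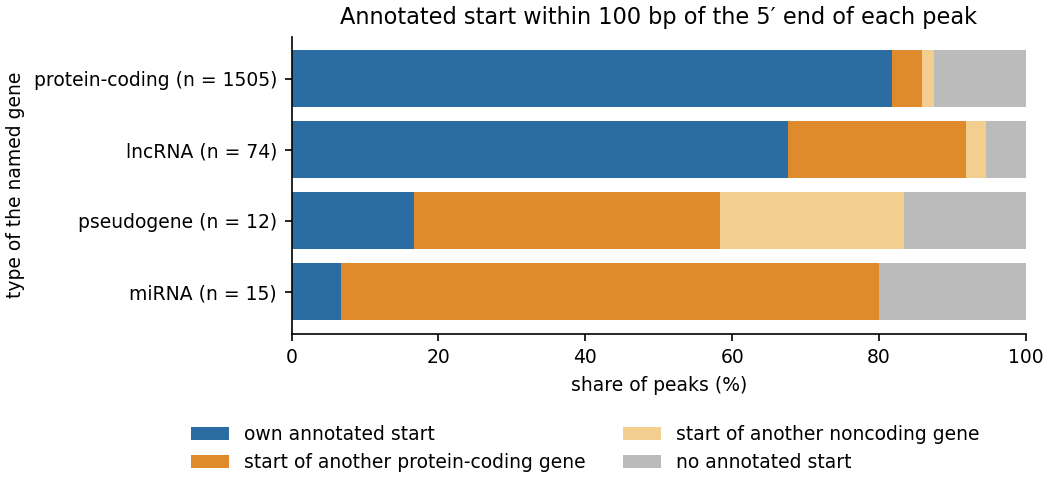
Share of peaks (%) by the type of gene named (rows, with the number of peaks), split by which annotated start lies within 100 bp of the span's 5′ end. The own start takes 81.7% of protein-coding names and 6.67% of miRNA names, while the start of another protein-coding gene takes 73.3% of miRNA names and 24.3% of lncRNA names.

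Antisense lncRNAs lay between these extremes. Of the 43 lncRNA-typed names with an antisense suffix, 24 began at their own start and 16 at the start of a protein-coding gene. In order along the genome, FOXD3-AS1 began at its own start (0 bp), as did BOLA3-AS1 (26 bp) and THUMPD3-AS1 (0 bp). TGFB2-AS1 lay 175 bp from its own start. The peak named SLC2A1-AS1 began 0 bp from a start of SLC2A1, the glucose transporter gene GLUT1, and 359 bp from its own. The peak named NEXN-AS1 spanned 27566 bp and began at the start of NEXN, which encodes an actin-binding protein of muscle. The peak named PKN2-AS1 spanned 76133 bp and began 48 bp from the start of PKN2, a protein kinase gene. FGD5-AS1 likewise named a span of 56300 bp that began at the start of the nuclear receptor gene NR2C2. The peak named EIF1B-AS1 began 25 bp from the start of EIF1B, and the first peak named EMC3-AS1, which the annotation types as a pseudogene, began 16 bp from that of EMC3, a subunit gene of the membrane protein insertase EMC. The list gives no strand, so which of the genes the reads came from cannot be told apart. Other lncRNA names had peaks at their own starts, with NEAT1 and FIRRE at 0 bp, MALAT1 at 42 bp and NORAD at 58 bp (chosen after their values were seen). NEAT1 and MALAT1 are abundant nuclear RNAs.

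In all, 126 of 1609 peaks (7.83%, interval 6.62-9.25) began within 100 bp of the start of another gene and of no start of the named one. The other gene was protein-coding in 96 of the 126 and lay on the opposite strand in 105. In 69 of the 126 the other gene and the named one lay on opposite strands with starts within 1000 bp, in either order. A further 200 peaks (12.4%) had no annotated start within 100 bp of either end on the matching strand. Among protein-coding names, the peak named VPS16 began 31 bp from a start of PCED1A and 418 bp from one of VPS16, a vesicle tethering gene, and the peak named DOLK began 6 bp from a start of the nucleoporin gene NUP188 and 5236 bp from one of DOLK. The peak named HSPD1, the mitochondrial chaperonin gene HSP60, began 83 bp from a start of HSPE1, its partner HSP10, and 925 bp from one of HSPD1. The divergent starts of that pair lie 539 bp apart. VPS16, DOLK and HSPD1 were chosen after their values were seen. In 3 cases a pair of peaks carried each other's name, namely GBAT2 and RFX5, VMP1 and PTRH2, and TTC31 and CCDC142.

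Of the 43 peaks with no name or no matching gene, 33 began within 100 bp of an annotated start. Several were named for retrocopies. The peak at chr1:226250408-226252102 carried the pseudogene name H3F3AP4 and began 7 bp from a start of H3-3A, a gene of the replacement histone H3.3. A second peak with that name, at chr1:226271276-226271482, began 15 bp from a start of LINC01703. The peak at chr1:19923471-19950014 carried the name RPS14P3 and began at the start of MICOS10, a gene of the mitochondrial inner membrane (named after its values were seen). Reads that a near-identical copy could share cannot be assigned from the list, so values of pseudogene names and histone copies are uncertain.

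The peaks were next compared with each other. Under different names, 10 pairs of peaks overlapped by at least 1 bp, with a median overlap of 251 bp, and no peak was in more than 1 of them. The genes lay on opposite strands in all 10 pairs. Of these, 7 were head to head, where starts within 1000 bp counted in either order and starts further apart by the order of the genes. Of the 7, only NAA38 and CHD3 had starts further apart, at 31230 bp. A further 2 were tail to tail and 1 was a miRNA gene nested against the gene SERF2. In 6 pairs both names were protein-coding. One span lay inside the other in 3 pairs, namely the peak of NAA15 (241 bp) within that of NDUFC1 (6719 bp), the peak of STRN3 (300 bp) within that of AP4S1 (40697 bp) and the peak of SERF2 (152 bp) within that of MIR1282 (9342 bp). NAA15 is the auxiliary subunit of the NatA acetyltransferase, and NDUFC1 is a subunit of respiratory complex I. The peaks of TSTD2 and NCBP1, a cap-binding complex gene, shared 258 bp, which was 95.6% of the shorter. The peaks of SP2 and SP2-AS1 shared the longest stretch, 17376 bp. The shortest was the 104 bp between VMP1, an autophagy gene, and PTRH2, a peptidyl-tRNA hydrolase gene. The remaining pairs were GBAT2 with RFX5 (284 bp), TTC31 with CCDC142 (158 bp), TRAF3IP2-AS1 with TRAF3IP2 (27.8% of the shorter span) and NAA38 with CHD3 (584 bp). With at least 50% of the shorter span required, 5 pairs were left, and with 50% of both spans, 0.

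Names with several peaks were few. Of 1611 distinct names, 34 had 2 or more peaks, 70 peaks in all, and 2 names had 3. Of the 34, 32 were protein-coding, 1 a pseudogene and 1 had no match. In 11 names every peak began at an own start, in 15 at least 1 peak began at the start of another gene, and in 14 the peaks overlapped each other. After peaks that overlap under one name were merged, 22 names still had 2 or more. The gap between separate peaks of a name had a median of 2439.5 bp, and 13 names had peaks more than 1000 bp apart.

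The named genes with several peaks showed 3 arrangements. First, some had peaks at different starts of the same gene. TOR1AIP1, an inner nuclear membrane gene, had a peak of 477 bp at 0 bp from a start and a pair of near-identical peaks (1985 and 1984 bp) 30 and 31 bp from its next start. SLC9B2, a sodium/proton exchanger gene, had near-identical peaks of 8834 and 8831 bp that began at the same base, and a peak of 271 bp at the start further upstream. SHC1, a signalling adaptor gene, had peaks that began 88 and 0 bp from own starts. In CLDND1, by contrast, both peaks began at the same base and differed in width (1862 and 298 bp). Second, one of the peaks could belong to a neighbour by its start. The first peak named SMC4, a condensin gene, spanned 14950 bp and began 1 bp from a start of IFT80, an intraflagellar transport gene, while the second began 64 bp from a start of SMC4. In COL4A3BP (now CERT1, a ceramide transfer gene) the peak of 57575 bp began 65 bp from a start of POLK, a translesion polymerase gene. In ZBTB11, a zinc finger gene, one peak began 6 bp from a start of ZBTB11-AS1 and the other 9 bp from a start of ZBTB11. Last, a peak could lie away from own starts, as in PBRM1, a gene of a chromatin remodeller, with peaks 2441 and 0 bp from an own start. HECW2, a ubiquitin ligase gene, had a peak of 159125 bp that began 120 bp from an own start and a peak of 181 bp at 8 bp. In PUM2, an RNA-binding repressor gene, both peaks lay beyond the 100 bp limit, at 136 and 104 bp, and 1203 bp apart. The widest gap was in PRPF18, a splicing factor gene, whose second peak lay 109874 bp downstream and began at 0 bp from a start of FRMD4A (singled out after its value was seen).

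Genes with a divergent neighbour carried a peak more often than genes without one. A divergent neighbour was a protein-coding or lncRNA gene that starts on the opposite strand within 1000 bp upstream, by the representative transcript of each gene. Of the 1471 genes with a peak, 435 had one (29.6%, interval 27.3-32.0), against 3759 of all 20175 protein-coding genes (18.6%, interval 18.1-19.2). Read the other way, a peak was named for 10.5% of genes whose nearest divergent neighbour was a lncRNA gene (197 of 1878, interval 9.18-11.96), for 12.7% of those with a protein-coding one (238 of 1881, interval 11.2-14.2) and for 6.31% of genes with none (1036 of 16416, interval 5.95-6.69). The intervals for the 2 kinds of neighbour overlap. By distance, the share ran from 9.78% (from 100 to under 200 bp) to 12.9% (from 200 to under 400 bp), and all 5 distance classes below 2000 bp overlapped one another in their intervals. These shares describe counts of genes, and no test over samples can be made of them.

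**Figure D2:**
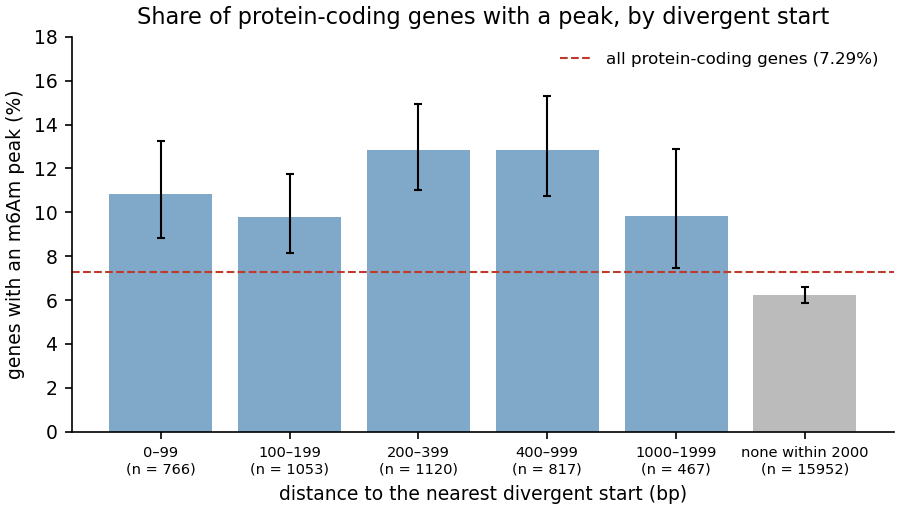
Share of protein-coding genes with a peak (%, bars, with 95% Wilson intervals) by the distance in bp to the nearest divergent start of a protein-coding or lncRNA gene. The grey bar (6.21%) holds the 15952 genes with no such start within 2000 bp, and the dashed line is the 7.29% of all protein-coding genes.

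CpG content moved with this pattern. In the 300 bases from 250 before to 49 after the start, the observed-to-expected CpG ratio had a median of 0.847 in genes with a peak and 0.773 in all protein-coding genes. Below a ratio of 0.4, 1.41% of 4964 genes had a peak, and at 0.75 or more 9.61% of 10742 did. At 0.75 or more, the share was 11.6% with a divergent neighbour (interval 10.5-12.8) and 8.83% without (interval 8.22-9.48), so the difference was smaller than over all genes and the intervals did not overlap. Between 0.4 and 0.75 it was 12.2% (interval 9.92-14.9) against 7.60% (interval 6.80-8.49). Below 0.4 it was 6.67% (8 of 120, interval 3.42-12.6) against 1.28% (62 of 4844, interval 1.00-1.64). Low CpG ratios are typical of promoters used in few tissues, and the part of expression in this pattern was not tested.

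Head-to-head pairs were then counted by how many of their genes were named. Among 978 protein-coding pairs with starts within 1000 bp, 743 had no gene with a peak, 219 had 1 and 16 had both (1.64%). Of the 235 pairs with any peak, both genes were named in 6.81% (interval 4.23-10.8). Of single genes in any of the 978 pairs, 12.6% had a peak (238 of 1887). A share over pairs with any peak and a share over genes are unlike measures. Whether the genes of a pair were named together more or less often than the share over genes gives was not tested. In 9 of the 16 pairs each gene's peak began within 100 bp of its own start, and in 3 the peaks overlapped. The closest pairs were ZNF142 and BCS1L, whose peaks lay 23 bp apart, and POLL and DPCD, with peaks 17 bp apart. In PBRM1 and GNL3, the latter the gene of the nucleolar GTPase nucleostemin, the starts lay 119 bp apart and the nearest peaks 99 bp. XRRA1 and SPCS2, a signal peptidase gene, had peaks 59 bp apart. TFB2M, a mitochondrial transcription factor gene, and CNST each had a peak within 2 bp of an own start. MRPL2, of the mitochondrial ribosome, lay beside the kinesin light chain gene KLC4, with peaks 48 bp apart. SMC1A, a cohesin gene, and RIBC1 each had a peak at 0 bp from an own start. The centriole gene SASS6 and the tRNA methyltransferase gene TRMT13 had peaks 54 bp apart, and those of PHB2 (prohibitin 2) and EMG1, a ribosome biogenesis methyltransferase gene, lay 27 bp apart. GOLGA2, a Golgi matrix gene, and SWI5, a recombination gene, had peaks 6 and 46 bp from own starts. The peaks named CCDC142 and TTC31 ran the other way, 6644 and 561 bp from own starts, as did those named PTRH2 (29890 bp) and VMP1 (9828 bp).

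**Figure D3:**
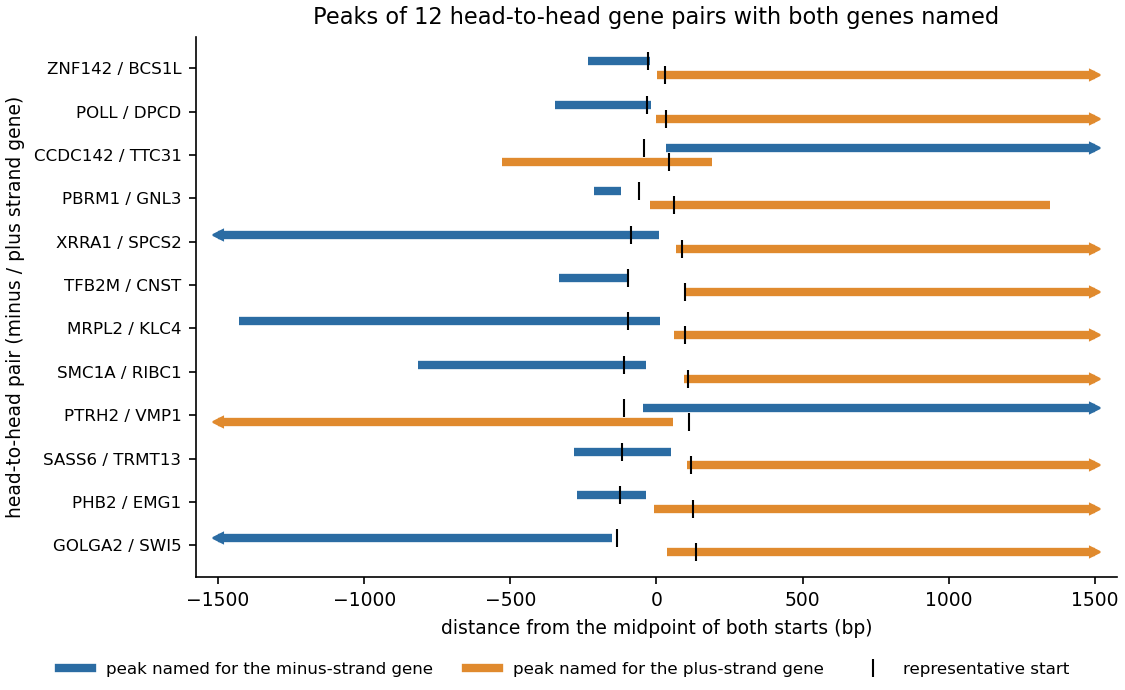
Peaks of the 12 head-to-head pairs with the shortest distance between starts in which both genes are named, drawn by distance (bp) from the midpoint of both representative starts, with arrowheads where a peak runs past the axis. In 10 pairs the minus-strand peak runs left and the plus-strand peak right, and in CCDC142 / TTC31 and PTRH2 / VMP1 the directions are exchanged.

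Genes with a peak were longer and less often without introns than protein-coding genes in general. Their median length was 36949 bp (quartiles 14749-84708), against 27195 bp (quartiles 9483-71241) for all. The median number of exons of the representative transcript was 9 (quartiles 5-15) against 8 (quartiles 4-14). Transcript length had a median of 3481 bp against 2866 bp, and coding length 1380 bp against 1263 bp. Genes with a peak had a median of 8 annotated starts, against 5. By length, the share of genes with a peak was 3.72% under 5000 bp (108 of 2901, interval 3.09-4.48), 6.90% from 10000 to 20000 bp and 9.08% from 50000 to 100000 bp (284 of 3128, interval 8.12-10.1), with no further rise above (8.92% from 200000 bp on). Single-exon genes had a peak in 2.21% of cases (26 of 1179, interval 1.51-3.21) and genes of 11 to 20 exons in 8.73% (interval 7.98-9.56). Among genes of 4 to 10 exons the share was 6.67% under 20000 bp (interval 5.94-7.48) and 8.82% from 20000 to 100000 bp (interval 7.95-9.77) and 8.30% above (interval 6.77-10.1). Among genes of 1 to 3 exons it was 3.92%, 6.27% and 4.17% (5 of 120) in the same length classes, and with 11 or more exons 6.61%, 8.51% and 9.08%. Many short and intronless genes, such as the olfactory receptor genes below, belong to tissue-specific families.

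**Figure D4:**
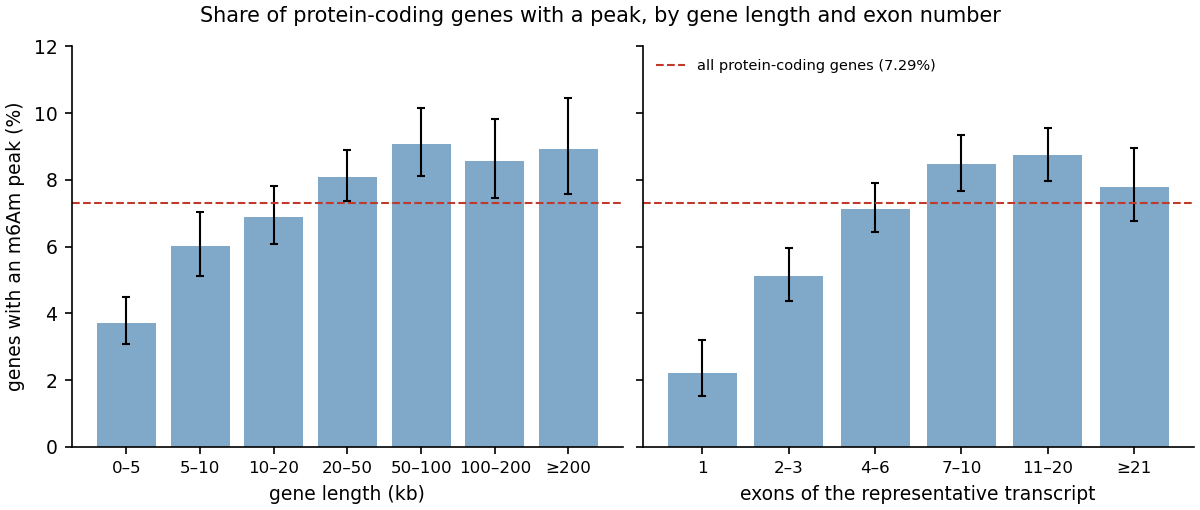
Share of protein-coding genes with a peak (%, bars, with 95% Wilson intervals) by gene length in kb (left) and by exons of the representative transcript (right). The share rises from 3.72% to about 9% with length and from 2.21% with 1 exon to 8.73% with 11-20 exons, against 7.29% of all protein-coding genes (dashed line).

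The longest genes named were LRP1B (1899594 bp), a lipoprotein receptor-related gene, the neurexin gene NRXN3 (1697919 bp), PRKG1 (1307536 bp), a cGMP-dependent kinase gene, the haematopoietic transcription factor gene RUNX1 (1216868 bp) and AUTS2 (1195211 bp). Their peaks spanned only 124 to 571 bp. NRXN3, PRKG1 and RUNX1 had a peak at 0 bp from an own start, LRP1B at 116 bp and AUTS2 at 246 bp. The shortest were H2BC17 (467 bp), a histone H2B gene, C6orf226 (557 bp), the splicing factor gene SF3B5 (690 bp), DPM3 (705 bp), a subunit of dolichol-phosphate mannose synthase, and the metallothionein gene MT2A (914 bp), all with a peak within 51 bp of an own start.

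The 26 single-exon genes included EXOC8, of the exocyst (peak 20 bp from its start), the mitochondrial methionyl-tRNA synthetase gene MARS2 (65 bp), the small GTPase gene RAP2B (14 bp) and UTP3, a ribosome biogenesis gene (53 bp). Of the histone genes, H2BC21, H2BC5 and H2BC17 had peaks 0, 1 and 0 bp from their starts. The peak named for H4C15 began at the start of its near-identical copy H4C14, 28342 bp from its own, and is uncertain. UQCRHL is a near-identical copy of UQCRH, so its peak (50 bp from its start) is uncertain too. The peak named TIGD1, a transposase-derived gene, lay 13746 bp from its start and began 72 bp from a start of EIF4E2, a cap-binding protein gene.

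The deposited spans mostly crossed introns. Only 334 of 1609 peaks (20.8%, interval 18.8-22.8) lay within 1 exon of the named gene, and their median width was 240 bp. The others had a median width of 2992 bp, of which 446 bp were exonic (median over 1221 peaks with any exon). Of all matched peaks, 158 touched no exon of the representative transcript (9.82%), 646 touched 1, 488 touched 2, 230 touched 3, 63 touched 4 and 24 touched 5 or more. Split by span width instead, the 720 genes with a peak of at most 1000 bp had a median first exon of 330 bp and the 751 genes named only by longer spans 124 bp, against 185 bp for all protein-coding genes. A span that runs past the end of a short first exon holds intronic sequence, and the part of this in the difference was not tested. Outer spans therefore include intronic sequence and do not give the length of the marked stretch.

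At the first base of the representative transcript, genes with a peak had more adenosine than protein-coding genes in general. The representative start was A in 60.3% of genes with a peak (887 of 1471, interval 57.8-62.8) and in 50.5% of all (10176 of 20162, interval 49.8-51.2). G was found in 31.4% against 37.01% and C in 8.02% against 10.8%. Where the representative start lay within 100 bp of the span, A stood at 62.4% (612 of 981, interval 59.3-65.4). When the annotated start nearest to the span was read instead, A fell to 46.3% (563 of 1217, interval 43.5-49.1). That start can be any annotated start of the gene, representative or not. The share is below the 50.5% of all representative starts but above the 32.5% of every annotated start of protein-coding genes, so its direction depends on the comparison. Over every annotated start, A stood at 33.0% in genes with a peak (4880 of 14773, interval 32.3-33.8). It stood at 32.5% in all protein-coding genes (146566 starts, interval 32.3-32.8), and these intervals overlap. Read the other way, genes that start with A had a peak in 8.72% of cases (interval 8.18-9.28), with G in 6.19% (interval 5.67-6.76), with C in 5.41% (interval 4.53-6.43) and with T in 1.23% (4 of 324, interval 0.481-3.13). A peak can cover several starts, and the annotation does not give the base used in these cells.

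Promoter motifs were counted as exact letters on either strand of the same 300-base windows. The Sp1-type GC box GGGCGG was found in 73.4% of genes with a peak (interval 71.1-75.6) and 60.9% of all 20162 windows, and CCAAT in 40.0% (interval 37.5-42.5) against 35.9%. The ETS motif CCGGAAGT was found in 8.91% (interval 7.55-10.5) against 6.09%, the YY1 motif AAGATGGCG in 6.39% (interval 5.25-7.76) against 2.82%, and the NRF1 core GCATGCGC in 6.39% (interval 5.25-7.76) against 4.29%. The TATA motif TATAAA was rarer, at 6.66% (interval 5.50-8.05) against 9.76%. The CRE motif TGACGTCA was close to the background, at 2.92% (interval 2.18-3.91) against 2.68%. In genes with spans of at most 1000 bp, TATAAA stood at 8.06% (interval 6.28-10.3) and CCAAT at 38.3% (interval 34.9-41.9). Both of these intervals hold the share of all windows. For the GC box, ETS, YY1 and NRF1 motifs the short-span intervals still lay above that share. The motifs overlap in base composition with CpG content, which moved with the peaks as given above, and a match is not a binding site.

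By function, 38 lists of genes were counted against the 7.29% of all protein-coding genes, with no test of enrichment. In 8 lists the interval lay above that share and in 2 below it. With spans of at most 1000 bp alone, only 2 of the 8 stayed above the share of all protein-coding genes (3.57%), the lysine methyltransferase and demethylase genes (5 of 41) and the cyclin and CDK genes (7 of 78), while the other 6 did not. Those 7 include CDC25B, CDC73 and CDKN2A, which are neither cyclins nor CDKs. With each span assigned to the gene that starts at its 5′ end, cyclin and CDK genes (10 of 78) did not stay above either. Lysine methyltransferase and demethylase genes had peaks in 10 of 41 (24.4%, interval 13.8-39.3), among them EZH1 and EZH2, the catalytic subunits of Polycomb complexes, and the demethylase genes KDM2B and KDM4D. Ubiquitin-conjugating enzyme genes had them in 8 of 37 (21.6%, interval 11.4-37.2), with UBE2A, UBE2G2, UBE2H and UBE2K. F-box genes, which encode substrate receptors of SCF ubiquitin ligases, had them in 12 of 62 (19.4%, interval 11.4-30.9), with FBXO16, FBXO17 and FBXO25. DNA replication genes had them in 9 of 47 (19.1%, interval 10.4-32.5), with GINS1 and GINS3 of the replicative helicase, ORC4 of the origin recognition complex and PCNA, the sliding clamp.

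Nucleoporin and nuclear transport genes had peaks in 9 of 54 (16.7%, interval 9.02-28.7), with the importin genes IPO8, KPNA3, KPNA4 and KPNA6. Translation initiation factor genes had them in 9 of 56 (16.1%, interval 8.69-27.8), with EIF1, EIF2B4, EIF2S2 and EIF3J. Kinetochore and centromere genes had them in 8 of 51 (15.7%, interval 8.17-28.0), with the checkpoint kinase gene BUB1 and with CENPF, CENPI and CENPP. Cyclin and CDK genes had them in 12 of 78 (15.4%, interval 9.03-24.99), with the D-type cyclin genes CCND1 and CCND2, CCNK and the phosphatase gene CDC25B. That list was drawn by symbol. Its members with a peak include CDC25B, CDC25C, CDC27, CDC73, CDKN2A and CDKN2B, which are neither cyclins nor CDKs. The peak named CDC25C began at a start of FAM53C, and that named CDKN2B at one of CDKN2B-AS1. Within these lists single names can belong to a neighbour, as the peak named CENPP, which began at the start of NOL8, 1885 bp from its own.

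At the other end, 0 of 414 olfactory receptor genes had a peak (0%, interval 0-0.919) and 1 of 149 keratin and keratin-associated genes did (0.671%, interval 0.119-3.70), namely KRT8. Cytosolic ribosomal protein genes had peaks in 3 of 86 (3.49%, interval 1.19-9.76), an interval that holds the background. Of these 86 genes, 64 have C at the representative start and 60 have C followed by 4 pyrimidines, the start of TOP mRNAs, whose translation responds to nutrients, while 12 have A. The 3 names were RPL7L1, RPL9 and RPS23. The peak of RPL7L1 began at its start. The peak of RPL9 lay 349 bp from an own start, and that of RPS23 lay 434 bp from one and outside the exons of the gene. Over all protein-coding genes with C followed by 4 pyrimidines, 53 of 918 had a peak (5.77%, interval 4.44-7.47). Of the 56 initiation factor genes, 16 have such a start, and 9 had a peak with all spans and 4 with spans of at most 1000 bp. The part of the start type in these shares was not tested.

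**Figure D5:**
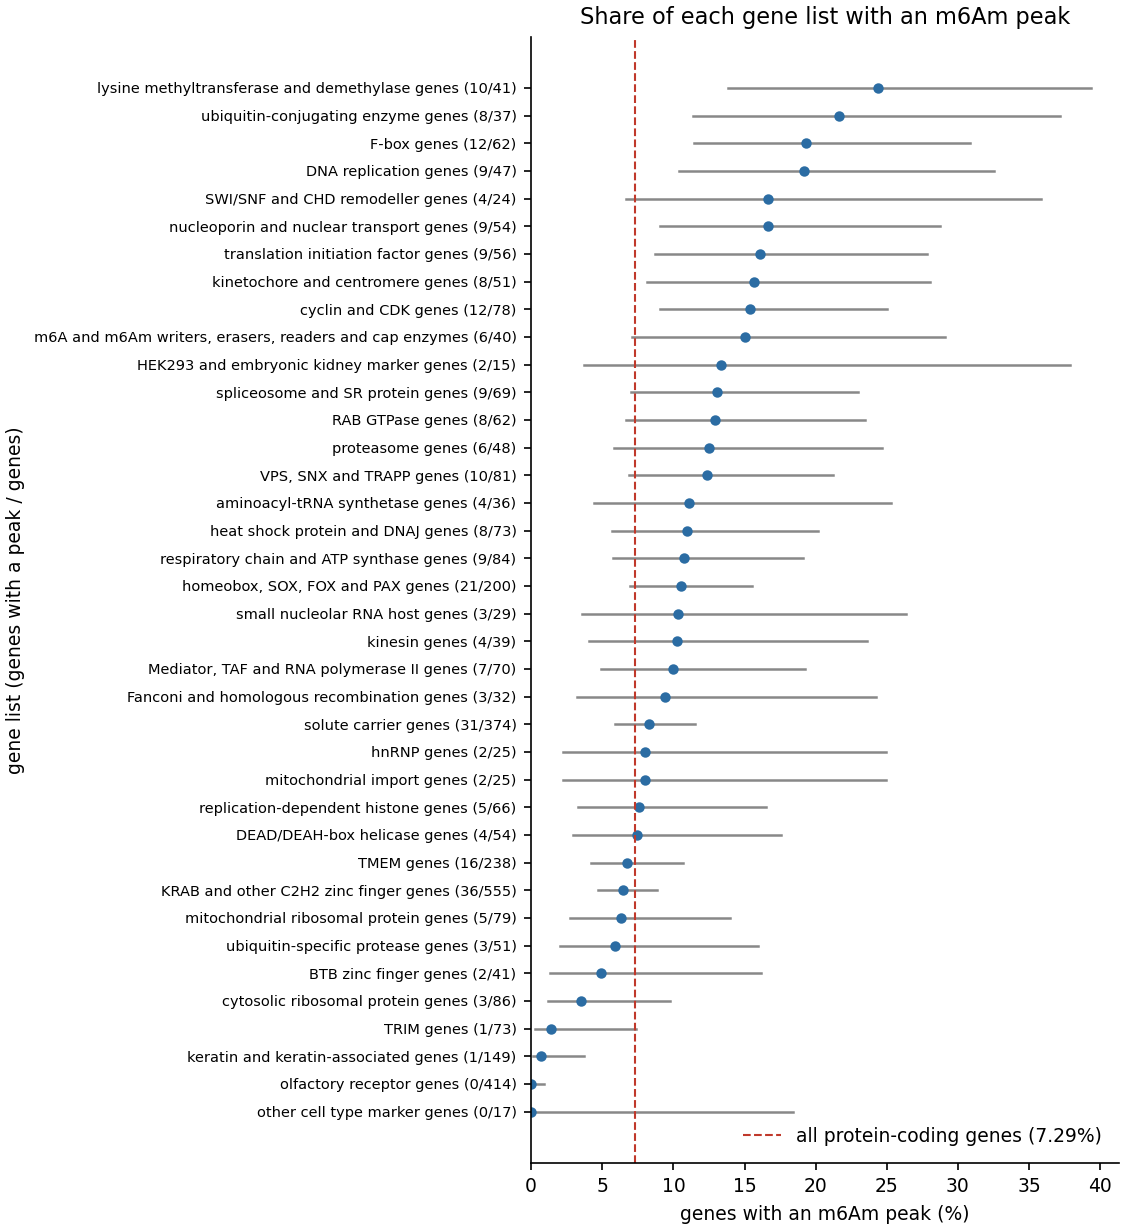
Share of the genes of each of 38 lists with a peak (%, points, with 95% Wilson intervals), with the number with a peak and the number of genes beside each name. Lysine methyltransferase and demethylase genes (24.4%) lead, olfactory receptor genes stand at 0%, and most intervals hold the 7.29% of all protein-coding genes (dashed line).

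For most lists the interval held 7.29%. The writers, erasers, readers and cap enzymes of m6A and m6Am had peaks in 6 of 40 (15%, interval 7.06-29.1), including the decapping gene DCP1B, the cap-binding gene EIF4E, the reader gene IGF2BP1 and NCBP1, whose peak lay 6156 bp from its own start. Spliceosome and SR protein genes had them in 9 of 69 (13.04%), with PRPF18, PRPF4B, SF3B5 and SNRNP25, RAB GTPase genes in 8 of 62 (12.9%), proteasome genes in 6 of 48 (12.5%), and heat shock protein and DNAJ genes in 8 of 73 (10.96%). Respiratory chain and ATP synthase genes had them in 9 of 84 (10.7%), with ATP5F1D, ATP5IF1, ATP5PF and NDUFA2, against 5 of 79 mitochondrial ribosomal protein genes (6.33%), with MRPL2, MRPL22, MRPL40 and MRPS21. Homeobox, SOX, FOX and PAX genes had them in 21 of 200 (10.5%, interval 6.97-15.5), with DLX2, DLX5, DLX6 and FOXP1, and solute carrier genes in 31 of 374 (8.29%). Zinc finger genes of the KRAB and C2H2 kind had them in 36 of 555 (6.49%, interval 4.72-8.85), with ZKSCAN1, ZNF142, ZNF148 and ZNF160, and TRIM genes in 1 of 73 (1.37%), TRIM56. Of the small nucleolar RNA host genes, which are noncoding, 3 of 29 had a peak (10.3%, interval 3.58-26.4), SNHG8, SNHG17 and SNHG21. For a noncoding list the nearer background is the 0.396% of annotated lncRNA genes, and the interval lies above it. The part of expression in that difference was not tested.

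Of 15 marker genes of HEK293 and embryonic kidney cells, 2 had a peak, VIM (vimentin) and KRT8 (keratin 8) (13.3%, interval 3.74-37.9), and of 17 marker genes of other cell types 0 did (interval 0-18.4). Both intervals hold 7.29% and they overlap, and the list holds peaks and not expression, so the cell label could not be checked with it. By chromosome, the share of protein-coding genes with a peak ran from 5.33% (chromosome 22, 24 of 450) to 10.2% (chromosome 14, 63 of 616) over the autosomes and stood at 8.63% on chromosome X. Peaks were named on neither chromosome Y (64 genes) nor the mitochondrial genome (13 genes).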

How the data were processed

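Peaks were made by m6Am-seq in wild-type HEK293T cells. Per the labels and methods, the authors trimmed reads with Trim Galore (version 0.6.6 in the submitters' processing notes, which also name Cufflinks), aligned them to hg19 with HISAT2, called peaks with exomePeak and MACS2, kept those that overlapped an m7G-IP peak and were over the FTO (-) to FTO (+) cutoff, and named genes with HOMER. The deposited list holds positions in bp and names only. How replicates were combined is not given in the sources used here. The stress lists also hold the authors' ratios of stressed to untreated cells, which were not used; their peaks were only counted.

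Names were matched by symbol, older symbols included, to GENCODE release 44 lifted to GRCh37, the build of the list, within 50000 bp. A representative transcript is the one tagged canonical, or else the longest. Starts counted as at a span within 100 bp. Shares are given with 95% Wilson intervals (scipy 1.17.1, Python 3.11.15, sequences with pyfaidx 0.9.0.4, figures with matplotlib 3.10.9). Overlap and neighbour functions were tested on simulated spans. No test over samples was possible, and none over genes was made. Named genes were taken by rule: up to 12 with most peaks, overlapping peaks and closest head-to-head pairs by position or distance, the 5 longest and shortest genes, up to 10 single-exon and 10 noncoding names by position (antisense first), and up to 4 members of a list by symbol. Exceptions are marked in the text. The members, lists and tests were chosen with earlier results of these data known. The alternatives were other name matches, spans, distances, overlaps, transcripts and starts.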

Additional observations from a re-analysis of the deposited data

How the results depend on the processing

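Across 12 results, 28 alternative values were computed. With spans of at most 1000 bp only, the share of protein-coding genes with a peak was 3.57% and 4 lists had an interval above that share, of which 2 were among the 8 found with all spans. The other 2 were the homeobox, SOX, FOX and PAX genes (14 of 200) and the solute carrier genes (24 of 374), and kinetochore and centromere genes fell to 1 of 51. Merging overlapping peaks of one name left 22 names with 2 or more. Overlapping pairs of different names fell to 5 (at least 50% of the shorter span) and 0 (50% of both). The share of genes with a divergent neighbour was 24.7% within 500 bp, 32.7% within 2000 bp and 16.2% with protein-coding neighbours only, beside 15.8%, 20.9% and 9.35% of all protein-coding genes, so its direction was kept. A at the start was 46.3% with the annotated start nearest to the span. That is below the 50.5% of all representative starts and above the 32.5% of every annotated start of protein-coding genes, so its direction depends on the comparison. The other 19 values stayed within the limits set (the 95% interval for shares, the quartiles for medians and 1.5 times for counts). Assigning each span to the gene that starts at its 5′ end, an alternative chosen after seeing the data, gave 7.39% of protein-coding genes, 20 head-to-head pairs with both genes marked and 60.2% with A. It also left 8 lists above the share, but not the same lists. Cyclin and CDK genes (10 of 78) and kinetochore and centromere genes (7 of 51) dropped out. Spliceosome and SR protein genes (10 of 69) and the m6A and m6Am writers, erasers, readers and cap enzymes (7 of 40) came in.

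No paired analysis was possible because the list holds no value per replicate, and leaving out a replicate was not possible for the same reason. Depth is unknown, and genes without a mark, without expression or with shallow coverage cannot be told apart. Spans are outer limits.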
